A study of Homo sapiens with 6 samples.

Results

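The transcripts described here are 10 genes of the mitochondrial route to cell death: APAF1, the anti-apoptotic members MCL1, BCL2 and BCL2L1, the pore-forming members BAX and BAK1, and the BH3-only members BBC3, PMAIP1, BCL2L11 and BID. They were chosen by name, as the rows of the deposited table that carry these symbols, and all 10 were found among 37879 rows. Of these, 9 were kept for testing and BBC3 was not, because it was detected on no array. In RefSeq (GRCh38.p14) MCL1 lies on chromosome 1, BCL2L11 on 2, BAK1 on 6, APAF1 on 12, BCL2 and PMAIP1 on 18, BAX and BBC3 on 19, BCL2L1 on 20 and BID on 22.

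The BCL2 family decides whether the outer membrane of the mitochondrion stays closed. BAX and BAK1 form pores in it, the anti-apoptotic proteins bind and restrain them, and BH3-only proteins oppose that restraint or act on BAX and BAK1 directly. Once the membrane is open, cytochrome c (CYCS) leaves and assembles with APAF1 into the apoptosome, which activates caspase-9. During a long arrest in mitosis little is transcribed and the labile MCL1 protein is degraded, so this family is central to whether arrested cells die or slip out of mitosis.

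Total RNA was measured in HEK293T cells, a human embryonic kidney line expressing SV40 large T antigen. The control group was 3 samples of cells transfected with an empty vector. The Stau1 group was 3 samples of cells transfected with a plasmid coding for Stau155-FLAG, a tagged isoform of the RNA-binding protein Staufen1, driven by the RSV promoter per the study's methods. All 6 samples received nocodazole, which depolymerizes microtubules, at 50 ng/ml over 15 h and were taken in prometaphase. Transfection was transient, so a sample can hold cells with and without the plasmid. There were no asynchronous or untreated samples, so the effect of the arrest itself was not measured. The comparison asks whether these transcripts differed in level when Stau1 was also made from a plasmid. APAF1 and CYCS stand on the list of transcripts that the study reported as bound by Stau1, and APAF1 was among those it followed by RT-qPCR.

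The median intensity over all rows was 83.0 to 102.2 per array, 12730 to 13469 rows per array were detected (a detection p under 0.05 against the negative control beads), and a row rested on a median of 40 to 41 beads. The number of arrays limits the precision of the comparison. Nothing in the labels says that replicates were separate cultures, so p-values measure the spread between these samples, which may be technical. STAU1 itself had log2 intensities of 11.21, 11.39 and 11.37 in the control samples and 11.41, 11.53 and 11.48 in the Stau1 samples. Its groups did not overlap, but the difference of 0.15 (SE 0.09) was not called (adjusted p = 0.999, limma). At the protein level, the study's western blot of prometaphase cells showed tagged Stau1 present, in a smaller amount than endogenous Stau1. Under other settings with all arrays the STAU1 difference was 0.125 to 0.238. With 1 array left out it was 0.0911 (without control replicate 1) to 0.182. Where its probes lie relative to the plasmid's insert is not given in the sources used here. All 8 mitotic markers examined (CCNB1, CDC20, PLK1, AURKA, BUB1, TTK, CENPE and KIF20A) were detected on all 6 arrays. Of the markers of HEK293 cells, NEFL and NEFM were detected on all 6 arrays, PAX2 on 1 and EYA1 on 0, and of 8 markers of other cell types, PTPRC, CD3E, HBB, COL1A2, DCN and ALB were detected on 0 arrays while PECAM1 was kept, with a difference of -0.20 that was not called. Its part in the results was not tested.

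None of the 9 kept transcripts passed the test between the groups. By limma with Benjamini-Hochberg adjustment over 13285 kept rows, 0 of 9 were called, as were 0% of all kept rows. Unadjusted p-values under 0.05 were likewise found for 0 of 9, against 3.73% of all kept rows, and the lowest unadjusted p among the 9, that of PMAIP1, was 0.243 by limma. For 0 of 9 did the control and Stau1 arrays stand apart without overlap, against 7.91% of kept rows in either direction, 4.51% with Stau1 higher and 3.4% with Stau1 lower. The fitted difference was above 0 for 5 and below 0 for 4, with a median of 0.01 on the log2 scale, beside a median of -0.00214 over all kept rows. The 95% confidence interval of the difference lay within 1.5-fold in either direction for all 9. BCL2 was close to background and its difference depended on the background correction, so its interval does not bound a change in its transcript. In RNA from whole samples, a change in the share of cells that carry a transcript and a change in the amount per cell cannot be told apart.

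**Figure D1:**
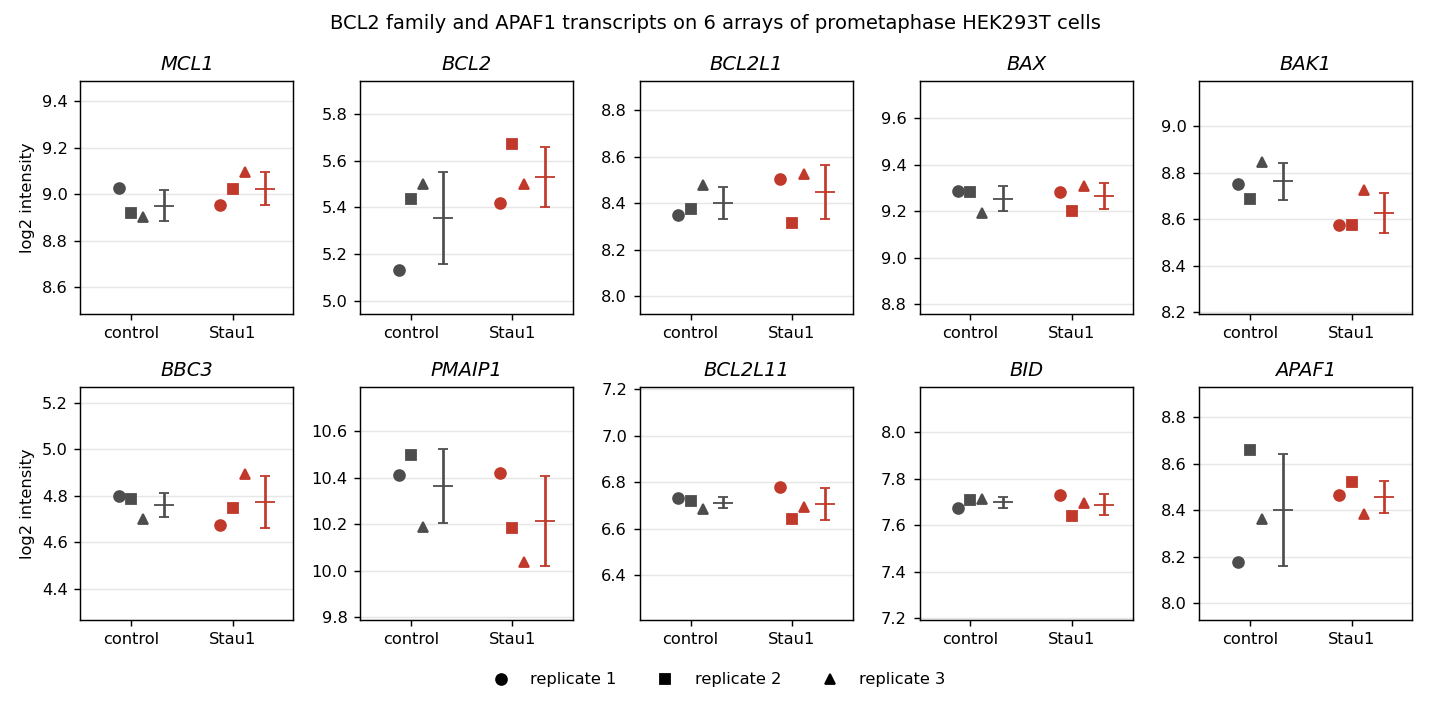
Log2 intensity (background-corrected, quantile-normalized) of each of the 10 transcripts on the 3 control and 3 Stau1 arrays. Symbols are single arrays and the bars beside them the mean ± SD. Each panel spans the same 1 log2 unit around its own centre, and the groups overlap in all 10. BBC3 was not detected on any array.

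APAF1, the scaffold of the apoptosome, had log2 intensities of 8.18, 8.66 and 8.36 in the control samples and 8.47, 8.52 and 8.38 in the Stau1 samples. The 3 Stau1 values lay inside the range of the controls, with control replicate 1 the lowest and control replicate 2 the highest of the 6. The control mean was 8.40 ± 0.24 (SD, n = 3) and the Stau1 mean 8.46 ± 0.07 (SD, n = 3). The difference was 0.06 on the log2 scale (SE 0.15, 95% interval -0.26 to 0.37), a ratio of 1.04 with an interval of 0.835 to 1.29. A larger difference in either direction was found in 67.3% of kept rows. Without control replicate 1 the difference turned to -0.06, so its sign rested on that array.

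CYCS, which encodes cytochrome c, measured 9.32, 9.35 and 9.56 on the control arrays and 9.33, 9.52 and 9.50 on the Stau1 arrays. Its highest value was that of control replicate 3, and the groups overlapped. The difference was 0.04 (SE 0.12), and it was not called.

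Among the anti-apoptotic genes, MCL1 encodes the short-lived guardian whose loss limits survival in mitotic arrest. Its log2 intensities were 9.03, 8.92 and 8.90 in the control samples and 8.95, 9.02 and 9.09 in the Stau1 samples. The highest value was that of Stau1 replicate 3, and control replicate 1 stood above Stau1 replicates 1 and 2. The means were 8.95 ± 0.07 and 9.02 ± 0.07 (SD, n = 3 each), a difference of 0.07 (SE 0.12, 95% interval -0.18 to 0.33). The interval of the MCL1 ratio ran from 0.883 to 1.25.

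BCL2L1, which encodes BCL-xL and its pro-apoptotic splice form, measured 8.35, 8.38 and 8.48 in the control samples and 8.51, 8.32 and 8.52 in the Stau1 samples. Stau1 replicate 2 was the lowest of all 6 arrays and the other 2 Stau1 arrays were the highest. The difference was 0.05 (SE 0.13, 95% interval -0.23 to 0.33), a ratio of 1.03 with an interval of 0.851 to 1.26. The table gives 1 value per gene, so the splice forms were not told apart.

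BCL2, the founding member of the family, was close to background. Its deposited intensities were 92.6, 103.9 and 124.9 in the control samples and 98.5, 127.8 and 122.0 in the Stau1 samples, which is between 0.759 and 2.23 background SDs above the background mean of each array. It was detected on 1 control array and 2 Stau1 arrays, and so it passed the filter with no array to spare. On the log2 scale the values were 5.13, 5.44 and 5.50 against 5.42, 5.67 and 5.50, with control replicate 1 the lowest and Stau1 replicate 2 the highest. The difference of 0.18 (SE 0.15, 95% interval -0.14 to 0.49) was the largest of the 9 in size, yet 23.3% of kept rows had a larger one. It fell within the spread of the groups (5.36 ± 0.20 in the control and 5.53 ± 0.13 in the Stau1 samples, SD, n = 3 each). For BCL2 the constant of 16 added after background correction made up 36.8% of the value, so the difference depended on the correction, at 0.0923 without it and 0.00862 with the background taken from all rows. Without control replicate 1 it was 0.0658.

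The effectors were BAX and BAK1. BAX, which moves to the mitochondrion from the cytosol when activated, measured 9.28, 9.28 and 9.19 in the control samples and 9.28, 9.20 and 9.31 in the Stau1 samples. Control replicate 3 was the lowest and Stau1 replicate 3 the highest. The means of BAX were 9.25 ± 0.05 and 9.26 ± 0.06 (SD, n = 3 each), and the difference was 0.01 (SE 0.11, 95% interval -0.23 to 0.25). Of all kept rows, 92.9% differed by more than BAX did. The ratio was 1.01, with an interval of 0.853 to 1.19.

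BAK1, which resides in the outer mitochondrial membrane, measured 8.75, 8.69 and 8.85 in the control samples and 8.58, 8.58 and 8.72 in the Stau1 samples. Stau1 replicates 1 and 2 lay below every control array, while Stau1 replicate 3 lay above control replicate 2, so the groups overlapped by that 1 array. The means were 8.76 ± 0.08 and 8.62 ± 0.09 (SD, n = 3 each) and the difference was -0.14 (SE 0.12, 95% interval -0.40 to 0.13), a ratio of 0.909 with an interval of 0.755 to 1.09. An exact two-sided permutation test over the 6 arrays gave p = 0.2 for BAK1, the lowest of the 10 transcripts by that test. It cannot give less than 0.1 with 3 arrays against 3. The test had been planned only for a transcript whose groups stood apart, but was computed for all 10. A larger difference was found in 33.7% of kept rows.

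PMAIP1 encodes NOXA, the BH3-only protein that binds MCL1 and is lost with it. Its log2 intensities were 10.41, 10.50 and 10.19 in the control samples and 10.42, 10.18 and 10.04 in the Stau1 samples. Stau1 replicates 2 and 3 were the 2 lowest arrays, but Stau1 replicate 1 stood above 2 of the 3 controls. The means were 10.37 ± 0.16 and 10.21 ± 0.19 (SD, n = 3 each). The difference was -0.15 (SE 0.12, 95% interval -0.42 to 0.12), a ratio of 0.900 with an interval of 0.747 to 1.08. In 29.2% of kept rows the difference was larger than that of PMAIP1.

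BCL2L11, which encodes BIM, measured 6.73, 6.72 and 6.69 in the control samples and 6.78, 6.64 and 6.69 in the Stau1 samples. The highest and the lowest of the 6 were both Stau1 arrays. The difference was -0.01 (SE 0.14, 95% interval -0.32 to 0.30), and 95.5% of kept rows differed by more. BIM is made as several splice forms, which share this 1 value.

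BID, which caspase-8 cleaves to link death receptors with the mitochondrion, measured 7.67, 7.71 and 7.71 in the control samples and 7.73, 7.64 and 7.69 in the Stau1 samples. Here too both extremes were Stau1 arrays. The difference was -0.01 (SE 0.14, 95% interval -0.30 to 0.28). For BID and BCL2L11 the standard error from the gene's own 6 arrays was only 0.03 and 0.04. The larger errors of the fit come from its moderation, which draws each gene's variance towards that of rows of like intensity, so the intervals of these 2 genes are wider than their own replicates alone would give.

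BBC3, which encodes PUMA, which binds every anti-apoptotic member, was at background in both groups. Its deposited intensities were 76.9, 75.8 and 81.7 in the control samples and 63.5, 84.5 and 94.8 in the Stau1 samples. These values lay between -0.678 and 0.124 background SDs from the background mean, with detection p from 0.328 to 0.838. No ratio is given for BBC3, and a difference in its transcript was not measurable on these arrays.

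**Figure D2:**
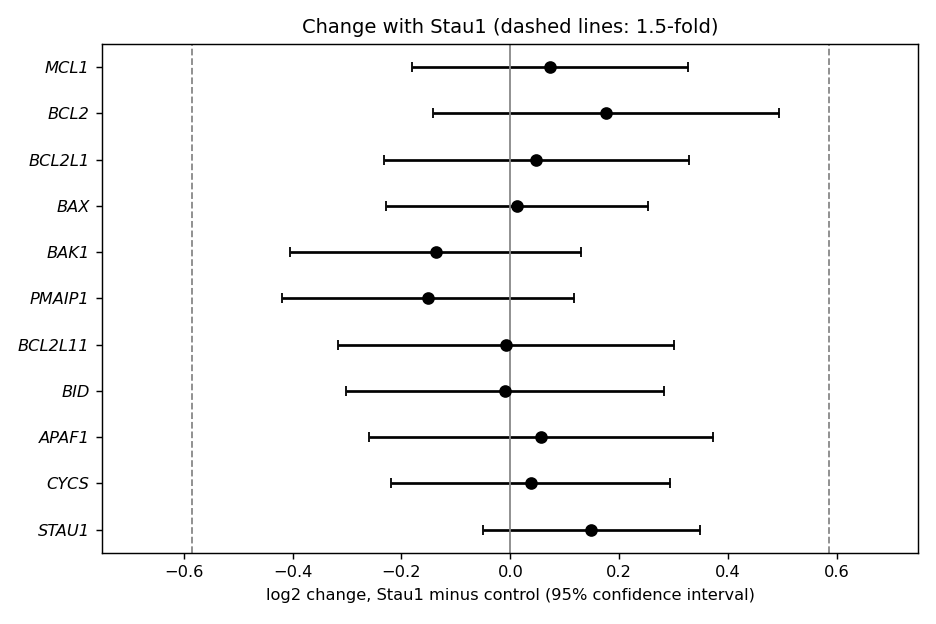
Difference in mean log2 intensity, Stau1 minus control, with its 95% confidence interval from limma, for the 9 kept transcripts and for CYCS and STAU1. Dashed lines mark 1.5-fold in either direction. Every interval crosses 0 and lies inside the dashed lines. BCL2 was close to background, so its interval does not bound a change in its transcript. BBC3, not detected, is left out.

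How much of the spread lay within an array could be read from the beads. The standard error over the beads of a row was 2.83% to 7.22% of its intensity across the 10 transcripts and 6 arrays. On log2 intensities without background correction, the SD between replicates, pooled over both groups, exceeded the mean bead error for 6 of the 10. The ratio was largest for PMAIP1 (2.39) and APAF1 (2.24). BCL2L1 (1.42), BBC3 (1.25), BCL2 (1.14) and MCL1 (1.11) came next. For BAK1 (0.910) and BAX (0.768) the replicate SD was below the bead error. For BCL2L11 (0.428) and BID (0.384) it was less still. Each ratio rests on 3 arrays a group and is a description with no test. For rows of several probes, such as BAX, BCL2L11 and BID, the sources used here do not say whether the bead error is that of 1 probe or of the mean over probes. BAK1 rested on the fewest beads, 25 to 35 per array, and BCL2L1 on 46.5 to 57.5.

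**Figure D3:**
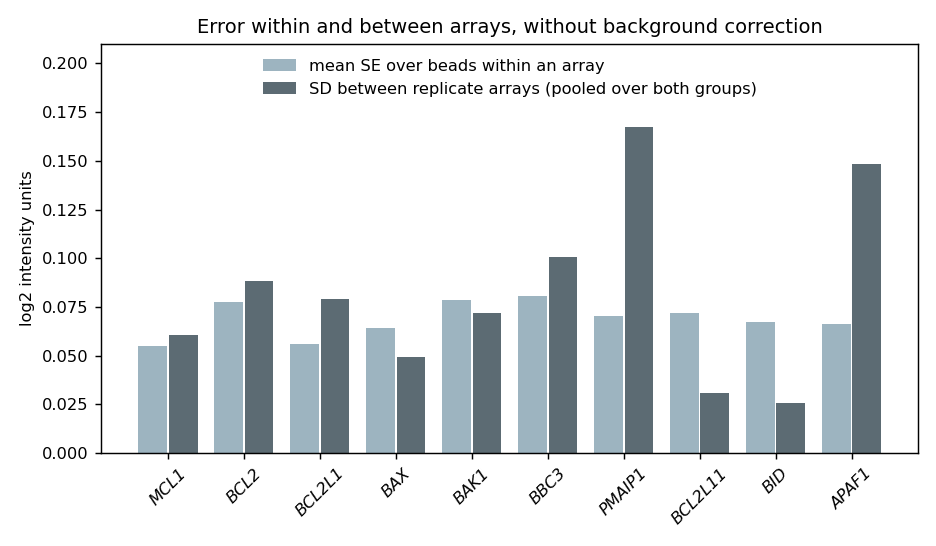
For each of the 10 transcripts, the standard error over beads within an array (mean of 6 arrays, converted to log2 units) beside the SD of log2 intensity between replicate arrays, both without background correction. PMAIP1 and APAF1 have the largest SD between replicates, 0.167 and 0.148. BCL2L11 and BID have the smallest, 0.0309 and 0.0259.

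Detection followed intensity for some of these genes and not for others. BAK1 and BBC3 had bead numbers that are whole on all arrays and so may rest on 1 probe, while fractional bead numbers showed at least 2 probes for APAF1, MCL1, BCL2L1 and PMAIP1, at least 3 for BAX, BCL2L11 and BID and at least 4 for BCL2. The deposited detection p of such a row combines its probes. BID was detected on 1 control array and 2 Stau1 arrays, with detection p from 0.0132 to 0.117, although its intensity of 225 to 338 stood 8.82 to 13.4 background SDs above the background mean. Of the rows of 1 probe with an intensity within 10% of that of BID, 100% were detected on every array. BAX reached a detection p of 0.0488 on control replicate 1 and APAF1 one of 0.0219 on Stau1 replicate 1, both at intensities where 100% of rows of 1 probe were detected. The detection calls of BID therefore did not follow how far its mean intensity lay above background. For BBC3, 0% of the rows of 1 probe with like intensity were detected.

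No array was high or low for the whole group. Control replicate 1 gave the lowest value for 2 of the 10 transcripts (APAF1 and BCL2) and control replicate 2 the highest for 2 (APAF1 and PMAIP1). Control replicate 3 was lowest for 2 (BAX and MCL1) and highest for 1 (BAK1). Stau1 replicate 1 was lowest for 2 and highest for 2, Stau1 replicate 2 lowest for 4 and highest for 1 (both were lowest, in a tie, for BAK1), and Stau1 replicate 3 lowest for 1 and highest for 4 (MCL1, BCL2L1, BAX and BBC3). Over all kept rows the median SD within a group was 0.17 for control and 0.12 for Stau1 samples.

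**Figure D4:**
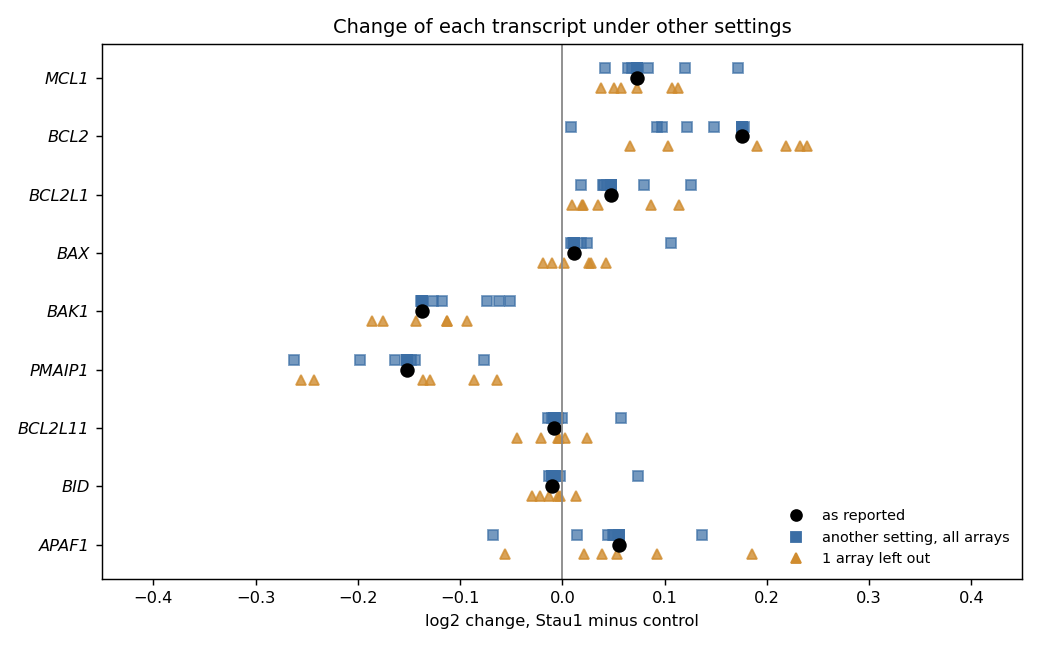
Difference in mean log2 intensity, Stau1 minus control, for the 9 kept transcripts as reported (black circles), under other settings with all arrays (blue squares) and with each array left out in turn (orange triangles). MCL1, BCL2, BCL2L1, BAK1 and PMAIP1 keep their sign throughout. APAF1, BAX, BCL2L11 and BID cross 0 in at least 1 setting. Under median scaling the median of all kept rows moves to 0.0679.

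The rest of the pathway was read from 5 lists with 59 genes, of which 45 were kept. The counts were 0 of 45 called by limma after adjustment and 1 of 45 at an unadjusted p under 0.05 (2.22%, beside 3.73% of kept rows). The groups stood apart without overlap for 4 of 45 (8.89%, beside 7.91%). Of the 45, 23 had a difference above 0 and 22 below, with a median of 0.00594 and a range of -0.33 to 0.26.

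The other BCL2 family genes had 12 of 16 members kept, 3 with a difference above 0 and 9 below, and a median of -0.07. None of the 12 was called. BCL2L13, a mitophagy receptor of the family, measured 11.59, 11.54 and 11.58 in the control samples and 11.69, 11.67 and 11.70 in the Stau1 samples, so that every Stau1 array stood above every control. Its difference was only 0.11 (SE 0.08) and it was not called. BNIP3L, another mitophagy receptor, had a difference of -0.20 (SE 0.17), with the groups overlapping. It was -0.0633 without control replicate 2, -0.351 without Stau1 replicate 2 and -0.0622 with the background taken from all rows.

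Of the apoptosome and caspase genes, 8 of 11 were kept, with 4 above 0, 4 below and a median of 0.00738. CASP9, the caspase that APAF1 activates, had a difference of -0.04 (SE 0.16). CASP2 measured 10.10, 10.12 and 10.16 in the control samples and 10.21, 10.43 and 10.33 in the Stau1 samples, with no overlap. Its difference was 0.20 (SE 0.10). PARP1, which executioner caspases cleave, had a difference of 0.17 (SE 0.11), and its groups overlapped because control replicate 3, at 13.62, was the highest array. The difference was 0.311 without that array and 0.0567 without control replicate 1, and neither was called.

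The inhibitor of apoptosis proteins and the mitochondrial factors that oppose them had 10 of 11 kept, 5 above 0 and 5 below, with a median of -0.00212. BIRC6, a giant ubiquitin ligase that inhibits caspases, measured 7.22, 7.53 and 7.24 in the control samples and 7.05, 7.13 and 6.82 in the Stau1 samples. Every Stau1 array lay below every control, and the difference of -0.33 (SE 0.16) was the largest in size of the 45. It was not called (adjusted p = 0.999, limma), and it depended on the processing. It was -0.0443 with the background taken from all rows, -0.222 without background correction and -0.472 with array weights. With 1 array left out it was -0.394 to -0.230. BIRC3 had a difference of 0.25 (SE 0.17) with overlap, which became 0.404 without control replicate 3, 0.145 without control replicate 1 and 0.0389 with the background taken from all rows. XIAP, a direct inhibitor of caspases, had one of 0.01 (SE 0.20), and DIABLO, which releases that inhibition, one of -0.06 (SE 0.10).

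Regulators of MCL1, BAX and BAK1 had 9 of 12 kept, 7 above 0 and 2 below, with a median of 0.04. HUWE1, a ubiquitin ligase for MCL1, had a difference of 0.20 (SE 0.14) and USP9X, which removes ubiquitin from MCL1, one of 0.12 (SE 0.11). The groups of USP9X stood apart and those of HUWE1 overlapped. With the background taken from all rows the difference of HUWE1 was 0.0479, and with array weights it was 0.294. FBXW7, another ligase acting on MCL1 in mitotic arrest, was detected on 2 arrays and not kept. CDC2, the older symbol of the mitotic kinase CDK1, measured 10.64, 10.66 and 10.14 in the control samples and 9.94, 10.36 and 10.25 in the Stau1 samples. Control replicate 3 lay among the Stau1 arrays, and the difference was -0.30 (SE 0.15). It was -0.472 without control replicate 3 and -0.174 without Stau1 replicate 1.

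Transcription factors that act on the BH3-only genes or APAF1 had 6 of 9 kept, 4 above 0 and 2 below, with a median of 0.04. JUN was the 1 gene at an unadjusted p under 0.05 (0.0292, limma; adjusted p = 0.999). It measured 11.33, 11.31 and 11.67 in the control samples and 11.63, 11.76 and 11.70 in the Stau1 samples, with control replicate 3 above Stau1 replicate 1. MYC measured 11.91, 11.87 and 11.14 in the control samples and 11.32, 11.49 and 11.49 in the Stau1 samples, a difference of -0.21 (SE 0.16). Without control replicate 3 the difference of MYC was -0.454 (adjusted p = 0.0727, limma), and without control replicate 1 it was -0.0729. As for CDC2 and JUN, control replicate 3 was the control nearest to the Stau1 arrays for MYC.

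**Figure D5:**
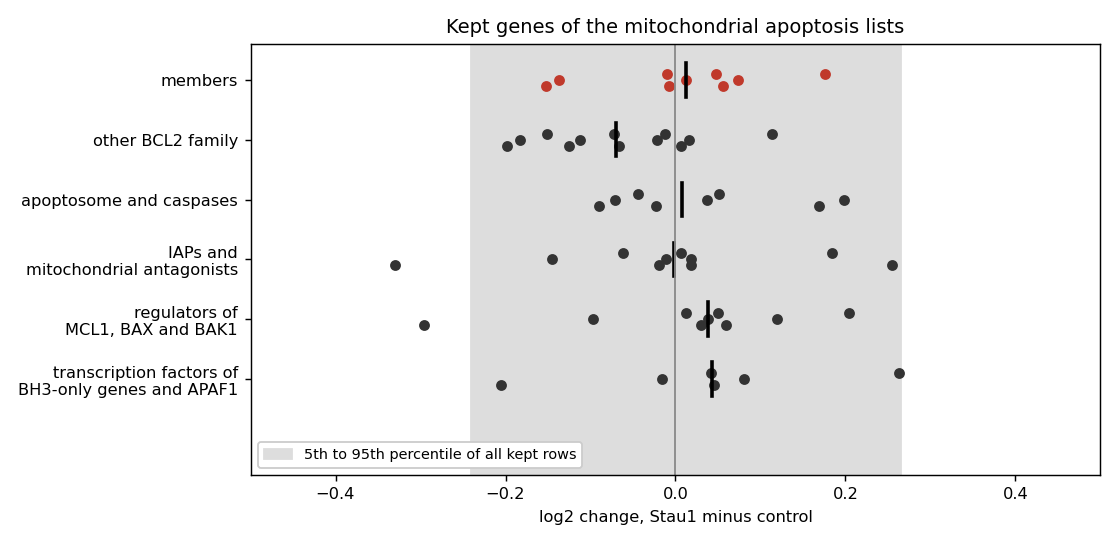
Difference in mean log2 intensity, Stau1 minus control, for the kept genes of each list, 1 point per gene, with the 9 kept BCL2 family and APAF1 transcripts (members) in red. Black ticks are list medians and the grey band runs from the 5th to the 95th percentile of all kept rows (-0.24 to 0.27). The members all lie inside the band. BIRC6 and CDC2 lie to its left.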

How the data were processed

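Each sample took its group from the transfection named in its label. Per the file headers, the deposited table was a BeadStudio gene profile without normalization: 1 signal intensity per gene and array, the mean over its probes, which the authors had not background-subtracted. Beside it the authors deposited a detection p-value, the number of beads and their standard error (in intensity units). The labels' time in nocodazole is printed; the study's methods give a longer one. The members and gene lists were chosen with earlier results of these data known, and so was the use of 1-probe rows for the background. In limma 3.58.1 (R 4.3.3), 30932 rows of 1 probe served to infer the background from their detection p (whole bead numbers and detection p in whole steps of 1 in 759, tolerance 0.002 steps). Intensities were then corrected by normexp, raised by an offset of 16, quantile-normalized and put on the log2 scale. A row was kept (13285, 35.1%) if its detection p was below 0.05 on 3 or more of the 6 arrays. The groups were compared with lmFit and eBayes with a variance trend, two-sided, with Benjamini-Hochberg adjustment over all kept rows at 0.05, and intervals are at 95%. Differences are Stau1 minus control. BBC3 was read from a fit without the filter. The fit was tested on simulated data. In each list the 2 kept genes with the lowest unadjusted p were named, besides the 10 members, CYCS and STAU1. CASP9, XIAP, DIABLO, USP9X and FBXW7 were named after their values were seen. Some genes of the lists are counted but not reported here by name. Levels were compared only within a gene. A RefSeq table (GRCh38.p14) served to find older symbols and chromosomes. Replicate numbers were not used to pair the arrays, except where a replicate block was added.

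The same results were recomputed with the background left uncorrected or inferred from all rows, with an offset of 50, and with median scaling or cyclic loess in place of quantile normalization. Further alternatives dropped the detection filter, asked for a detection p below 0.01 on all 6 arrays, left out the variance trend, weighted the arrays, added a replicate block, used the methods' t-test, or left out each array in turn.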

Additional observations from a re-analysis of the deposited data

How the results depend on the processing

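No member was called under any alternative run. The lowest adjusted p of a member was 0.478 by limma with all arrays (PMAIP1, array weights) and 0.447 with 1 array left out (PMAIP1, without control replicate 3). With array weights the unadjusted p of PMAIP1 was 0.0382 by limma, in a run where 1291 of 13285 rows were under 0.05. For the 9 kept members, 5 of the 11 alternatives with all arrays leave a difference as it is by construction. Under the 6 that can move it, 51 of 54 differences kept their sign, as did 48 of 54 with 1 array left out. APAF1 turned to -0.0676 with array weights and spanned -0.0563 to 0.185 with each array left out in turn. Under median scaling, which moved the median of all kept rows to 0.0679, BCL2L11 became 0.0575 and BID 0.0744, and leaving out arrays gave -0.0438 to 0.0238 and -0.0294 to 0.0138. The same range was -0.0185 to 0.0432 for BAX, -0.00726 to 0.113 for CYCS, and -0.0483 to 0.0616 for BBC3, which was at background, so that its differences measure no transcript. The all-array alternatives put PMAIP1 between -0.263 and -0.0763 and BAK1 between -0.138 and -0.0515. Leaving out arrays gave -0.255 to -0.0641 for PMAIP1 (nearest 0 without Stau1 replicate 3) and -0.186 to -0.0927 for BAK1. With 1 array left out, MCL1 spanned 0.0375 to 0.113 and BCL2L1 0.00906 to 0.114, both lowest without Stau1 replicate 3.

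Over all rows, 0 were called under each alternative with all arrays. At an unadjusted p under 0.05 by limma were 229 of 13285 rows (median scaling) to 1565 of 37879 rows (no filter). The methods' t-test gave 462 of 13285. Array weights gave the largest share, 1291 of 13285, and a lowest adjusted p of 0.0560 by limma. Leaving out 1 array gave 0 to 39 calls, the 39 without control replicate 3 and none of them a member. The cause was not tested. With the replicate number as a replicate block, 0 rows were called and 605 had an unadjusted p under 0.05. The numbers were not taken as pairs: deviations of same-numbered arrays correlated at 0.02, 0.26 and -0.14, and 2 of 6 arrays correlated best with their own number. With so few arrays, these values cannot decide whether the samples were paired. The filter at a detection p under 0.01 on all arrays leaves out APAF1, BAX, BCL2, BBC3 and BID, so it gave no value for them. Small differences in BCL2 and BBC3 are limited by their signal near background.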
